A study of Mus musculus with 12 samples.

Results

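The signalling chain from the sugar sensor ALPK1 to the kinase TAK1 was followed at the mRNA level in bone-marrow-derived macrophages, primary mouse cells grown out of marrow. Its 10 genes were taken by symbol: the sensor Alpk1, the adaptor Tifa and its relative Tifab, the ubiquitin ligases Traf2 and Traf6, the ubiquitin-conjugating enzyme Ube2n, the kinase Map3k7 (TAK1) and its partners Tab1, Tab2 and Tab3. All 10 were found among the 56748 genes of the count table, in its upper 37542 rows, which were used here, and all 10 were among the 12261 genes with enough reads to be tested. The cells came from Alpk1 knockout (KO) and wild-type (WT) mice labelled C57BL/6N and were grown for 7 days in medium conditioned by L929 cells, which supplies a macrophage growth factor. They then received 100 µM ADP-heptose (ADP-Hep) or PBS, its control, for 4 h. This gave 4 groups of 3 libraries: KO cells with ADP-Hep, KO cells with PBS, WT cells with ADP-Hep and WT cells with PBS. The segment of Alpk1 removed in the KO mice, and whether KO and WT mice were littermates, are not given in the labels. Separate mice or cultures behind the 3 libraries of each group are not stated in any label, so the p-values speak only for the scatter among libraries, which can be technical.

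ADP-Hep is a sugar nucleotide that Gram-negative bacteria make on the way to lipopolysaccharide. ALPK1 binds it in the cytosol and phosphorylates TIFA, which then oligomerises and recruits TRAF6 and TRAF2. TRAF6, with the UBE2N enzyme, builds ubiquitin chains that TAB2 and TAB3 bind, and TAK1, held with TAB1, then activates the kinases that release NF-kB and drive the MAP kinases. Each of these steps acts on protein, while the values here are mRNA levels.

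Depth was 16110654 to 31333973 counts per library, with 12307826 to 25742912 of them in the rows used. In the lower part of the table the KO columns stood 1 row below the gene identifiers, and those rows were left out. The last of the 10 genes is at table row 20719, far above the break. Levels are given as CPM, the counts of a gene relative to the library's size after TMM scaling, which allows for differences in library composition. The sums of cell type markers that follow are the exception: they are CPM of library totals in the rows used, without TMM scaling. TMM factors were 0.926 to 0.954 in WT ADP-Hep libraries and 1.012 in WT PBS, so small differences between these sums depend on the scaling. Macrophage markers summed to 26800 to 27861 CPM in KO ADP-Hep libraries, 26658 to 28212 in KO PBS, 27056 to 27480 in WT ADP-Hep and 25264 to 27220 in WT PBS. Of the 9 tested, ADP-Hep gave 2 higher and 1 lower in KO cells, and 4 higher and 3 lower in WT cells. Between genotypes, 4 were higher and 2 lower in KO cells with ADP-Hep, and 3 were higher and 0 lower with PBS. The lymphocyte markers Cd3e, Cd3g and Ncr1 were at 0 in every group, and the lymphocyte list summed to at most 0.482 CPM in any library. Of the 6 dendritic cell markers, which summed to at most 1.61 CPM, Cd209a was at 0 in every group. Stromal and progenitor markers summed to 2.65 to 5.2 CPM, with 3.38 to 3.68 in WT ADP-Hep libraries against 4.38 to 5.2 in WT PBS, and dendritic markers to 1.12 to 1.48 in WT ADP-Hep against 0.593 to 0.936 in WT PBS. The 9 neutrophil markers summed to 163 to 175 CPM in KO ADP-Hep libraries against 222 to 257 in KO PBS, and to 171 to 191 in WT ADP-Hep against 193 to 213 in WT PBS. Of the 7 neutrophil markers tested, ADP-Hep gave 0 higher and 4 lower in KO cells (median -0.61), and 3 higher and 1 lower in WT cells (median 0.29). These medians are after TMM scaling and the sums of the 9 are not, so in WT cells the 2 are not on the same scale. Between genotypes, 1 was higher and 6 were lower in KO cells with ADP-Hep (median -0.68), and 1 was higher and 1 lower with PBS. Of all tested genes, 28.9% in KO cells and 63.5% in WT cells were called at an adjusted p under 0.05. Between genotypes the shares were 64.8% with ADP-Hep and 11.4% with PBS. The part of the cell type markers in the values below was not tested. In such bulk RNA, fewer cells of a type and less RNA per cell cannot be told apart.

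Coordinates are from the mm10 build with GENCODE release 21. Alpk1 (ENSMUSG00000028028) lies at chr3:127670310-127780527 on the minus strand. Tifa (ENSMUSG00000046688) lies next to it at chr3:127789805-127832164 on the plus strand, with 9278 bp between the gene bodies, so that the sensor and its substrate are neighbours in the genome. Tifab (ENSMUSG00000049625) is elsewhere, at chr13:56173704-56178885, minus. The ligase genes are at chr2:25517982-25546940, minus, for Traf2 (ENSMUSG00000026942) and chr2:101678429-101701669, plus, for Traf6 (ENSMUSG00000027164). Ube2n (ENSMUSG00000074781) is at chr10:95515145-95545657, plus. Map3k7 (ENSMUSG00000028284) is at chr4:31964097-32023467, plus. Its partners are Tab1 (ENSMUSG00000022414) at chr15:80133127-80161707, plus, Tab2 (ENSMUSG00000015755) at chr10:7905653-7956230, minus, and Tab3 (ENSMUSG00000035476) at chrX:85574022-85634469, plus. All are protein-coding. Tifa is the member with an exon overlap: an unclassified transcript, Gm43654, covers part of its exons on the opposite strand, and since the strand setting of the counting is not given, reads of the pair cannot be told apart. Ube2n has a pseudogene copy, Ube2n-ps1, and how reads shared by the copies were counted is not given either.

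The promoters are shown because NF-kB, the factor at the end of the chain, binds a known DNA motif. Windows of 300 bases, from 250 before to 50 from the annotated start, came from RefSeq (GRCm38.p6, the assembly that mm10 renders). They covered 9 of the 10 genes with 11 windows, and not Tab1. Both strands were searched for the kB consensus decamer, the AP-1 motif TGANTCA and the core of the interferon-stimulated response element (ISRE), and overlapping matches were allowed. The kB decamer was found in 3 of the 11 windows, from 3 genes, and the other motifs in 0. Over all 32851 mouse windows, 8.46% held a kB match, 7.81% an AP-1 match and 3.44% an ISRE match. Below are the 3 windows with a kB match and those of Traf2 and Tifab, the genes with the largest rise and fall in WT cells, which have none. Each is written 5′ to 3′ on the gene's own strand, with the kB match in capitals.
Alpk1, chr3:127780478-127780777, minus: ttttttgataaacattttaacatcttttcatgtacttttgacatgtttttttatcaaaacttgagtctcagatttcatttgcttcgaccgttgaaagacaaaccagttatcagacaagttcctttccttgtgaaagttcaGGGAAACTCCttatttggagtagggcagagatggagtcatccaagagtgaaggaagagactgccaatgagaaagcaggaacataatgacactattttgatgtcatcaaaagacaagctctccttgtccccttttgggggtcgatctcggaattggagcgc
Tifa, second start, chr3:127790407-127790706, plus: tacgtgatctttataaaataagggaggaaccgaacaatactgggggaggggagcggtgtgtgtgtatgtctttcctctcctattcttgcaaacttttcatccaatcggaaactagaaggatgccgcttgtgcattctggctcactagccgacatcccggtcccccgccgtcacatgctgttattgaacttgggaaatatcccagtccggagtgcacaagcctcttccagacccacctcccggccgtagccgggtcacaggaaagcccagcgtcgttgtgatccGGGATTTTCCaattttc
Map3k7, chr4:31963857-31964156, plus: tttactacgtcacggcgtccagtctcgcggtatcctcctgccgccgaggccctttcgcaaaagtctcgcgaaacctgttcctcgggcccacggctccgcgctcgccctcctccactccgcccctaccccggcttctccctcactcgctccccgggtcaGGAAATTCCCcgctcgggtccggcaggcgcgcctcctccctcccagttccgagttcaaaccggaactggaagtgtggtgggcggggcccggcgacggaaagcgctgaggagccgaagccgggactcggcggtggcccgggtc
Traf2, chr2:25546891-25547190, minus: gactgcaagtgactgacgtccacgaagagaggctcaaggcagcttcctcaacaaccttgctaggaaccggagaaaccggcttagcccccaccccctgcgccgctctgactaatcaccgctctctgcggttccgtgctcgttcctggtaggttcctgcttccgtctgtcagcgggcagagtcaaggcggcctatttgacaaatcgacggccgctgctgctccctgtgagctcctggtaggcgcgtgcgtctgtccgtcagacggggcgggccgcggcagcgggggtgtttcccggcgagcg
Tifab, chr13:56178836-56179135, minus: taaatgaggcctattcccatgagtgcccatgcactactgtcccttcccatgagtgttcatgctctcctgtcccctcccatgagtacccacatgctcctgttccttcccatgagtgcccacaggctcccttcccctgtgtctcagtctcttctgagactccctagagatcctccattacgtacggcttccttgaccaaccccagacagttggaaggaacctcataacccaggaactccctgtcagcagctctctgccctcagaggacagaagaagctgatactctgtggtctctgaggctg
The Alpk1 match lies 110 to 101 bases before the annotated start and the Map3k7 match 92 to 83 bases before it. The Tifa match lies 33 to 42 bases after the second start, inside the transcript, and the window of the first Tifa start has none. These are matches of letters, not measured binding sites. Bases outside the windows were not searched, and a link between matches and changes was not tested.

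Each change is a log2 fold change taken from one edgeR quasi-likelihood model of all 4 groups. A gene was called where its p, adjusted by Benjamini and Hochberg's method over all tested genes, was under 0.05. Because edgeR reports no standard error here, the SE printed is approximate: the size of the change over the root of its F statistic. In KO cells 1 of the 10 genes was called after ADP-Hep, Tifab, which was higher. Of all tested genes 28.9% were called in KO cells, 13.7% higher and 15.3% lower. In WT cells 9 of the 10 were called, 7 higher and 2 lower, with Tab3 the exception. The background in WT cells was 63.5% of the tested genes called, 31.9% higher and 31.6% lower, so most of them were called there as well. The median change of the 10 genes was 0.03 in KO cells and 0.21 in WT cells, against 0.0052 and -0.0058 over all tested genes. Their median absolute change was 0.09 in KO cells and 0.50 in WT cells, against 0.15 and 0.34 over all genes.

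The difference between the responses, KO minus WT, was tested as the interaction term of the same model. It was called for 8 of the 10 genes, 2 positive and 6 negative, where 49.5% of all genes were called, 24.9% positive and 24.6% negative. The exceptions were Map3k7 and Tab3. Scaled by library totals alone, 6 of the 10 were called, 2 positive and 4 negative, and the WT response called 7 in place of 9. Comparing the genotypes directly, 1 of 10 was called with PBS, Alpk1, which was lower in KO cells. With PBS, 11.4% of all genes were called, 5.57% higher in KO and 5.82% lower. With ADP-Hep, 9 of 10 were called, 2 higher and 7 lower in KO cells, against 64.8% of all genes, 32.8% higher and 32.0% lower. As a count without a model, the 3 libraries of KO ADP-Hep lay apart from those of KO PBS for 3 of the 10 genes and for 42.1% of all genes. The WT treatment groups lay apart for 9 of the 10 and for 65.9% of all. The genotypes lay apart for 4 of the 10 with PBS, against 27.7% of all, and for 9 of the 10 with ADP-Hep, against 68.6% of all. The comparisons that share a group are not independent of each other.

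**Figure D1:**
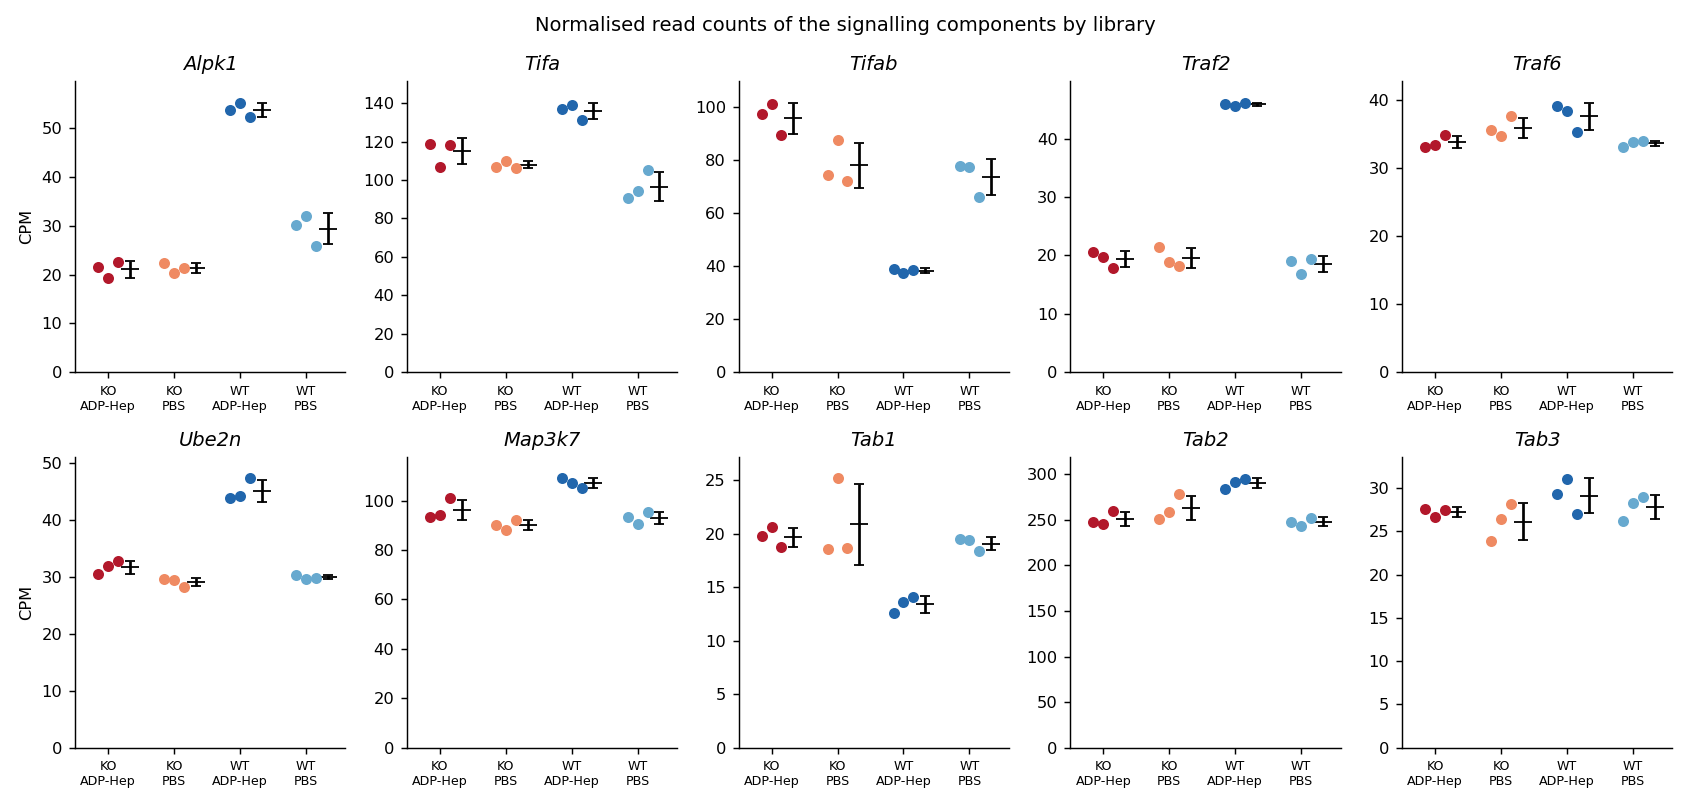
CPM (vertical axis, from 0) of each of the 10 genes in the 12 libraries, with KO groups left of WT groups and ADP-Hep left of PBS. Points are libraries, and the black mark with its bar is the group mean ± SD (n = 3). The WT ADP-Hep libraries stand apart from the other 9 for each gene but Traf6 and Tab3.

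Alpk1, the sensor and the targeted gene, was higher after ADP-Hep in WT cells and did not pass the test in KO cells. In KO cells it had 21.6, 19.2 and 22.5 CPM after ADP-Hep, against 22.3, 20.3 and 21.3 CPM with PBS. In WT cells it had 53.8, 55.3 and 52.3 CPM after ADP-Hep, against 30.1, 32.1 and 25.9 CPM with PBS. The KO groups overlapped, while every WT ADP-Hep library lay above every WT PBS library. The KO change was 0.00088 ± 0.08, with a 95% interval of -0.17 to 0.17. The WT change was 0.89 ± 0.07, a 1.85-fold rise (adjusted p = 3.1e-11), and the responses differed by -0.89 ± 0.11 (adjusted p = 2.1e-07). Reads over Alpk1 were therefore present in every KO library. KO cells had fewer of them than WT cells, with a log2 difference of -0.45 ± 0.08 with PBS (adjusted p = 0.00037) and -1.34 ± 0.07 with ADP-Hep (adjusted p = 1.5e-14). Since the deleted segment is not given, the size of this whole-gene difference is no check of the genotype.

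Tifa, the substrate of ALPK1 and the adaptor that carries its signal, also rose in WT cells, by less. In KO cells it had 119, 107 and 118 CPM after ADP-Hep, against 107, 110 and 106 CPM with PBS. In WT cells it had 137, 139 and 131 CPM after ADP-Hep, against 90.5, 94.4 and 105 CPM with PBS. The KO groups overlapped and the WT groups did not. The change was 0.10 ± 0.06 in KO cells (adjusted p = 0.21, interval -0.02 to 0.21) and 0.49 ± 0.05 in WT cells (adjusted p = 2.3e-08). The difference of -0.39 ± 0.08 passed the test (adjusted p = 0.00017). Between genotypes Tifa took opposite signs: it was lower in KO cells after ADP-Hep (-0.24 ± 0.05, adjusted p = 0.00039), while with PBS its KO value was the higher one and missed the threshold (0.15 ± 0.06, adjusted p = 0.085). That PBS value varied with the WT libraries kept. Without the WT library with 105 CPM it was 0.22 (adjusted p = 0.0106), and without the one with 90.5 CPM it was 0.11 (adjusted p = 0.298). These were the lowest and highest adjusted p over 23 other settings. With library totals as the only scaling, the ADP-Hep difference of Tifa was -0.09 (adjusted p = 0.183; 2.42e-05 to 0.183 over 23 other settings).

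Tifab, the TIFA relative that has been described as restraining TRAF6 signalling, was the member that moved opposite ways in the genotypes. In KO cells it had 97.2, 101 and 89.3 CPM after ADP-Hep, against 74.3, 87.5 and 72 CPM with PBS. In WT cells it had 39, 37.3 and 38.4 CPM after ADP-Hep, against 77.5, 77.2 and 65.8 CPM with PBS. The treatment groups did not overlap in either genotype: all ADP-Hep libraries were above PBS in KO cells and below PBS in WT cells. The KO change was 0.29 ± 0.07, a 1.22-fold rise (adjusted p = 0.0038). The WT change was -0.94 ± 0.08, to 0.522 of the PBS level (adjusted p = 3.9e-10). The difference, 1.23 ± 0.10, was the largest positive one among the 10 genes (adjusted p = 2e-09). Neutrophil markers moved with treatment in those same KO libraries. Of the 7 tested, 4 were called lower and 0 higher, where 15.3% and 13.7% of all tested genes were. Their part in the Tifab value was not tested. With PBS the genotypes were not told apart (0.10 ± 0.07, adjusted p = 0.44, interval -0.05 to 0.25), and with ADP-Hep KO cells had 2.5-fold more Tifab (1.32 ± 0.07, adjusted p = 6.9e-13).

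Traf2, a ligase-family adaptor also used by the TNF receptors, had the largest change of the 10 genes. In KO cells it had 20.6, 19.7 and 17.8 CPM after ADP-Hep, against 21.4, 18.9 and 18.1 CPM with PBS. In WT cells it had 45.9, 45.6 and 46.1 CPM after ADP-Hep, against 19.1, 16.8 and 19.4 CPM with PBS. The KO groups overlapped, and the WT ADP-Hep libraries were more than double those with PBS. The change was -0.01 ± 0.08 in KO cells (adjusted p = 0.96, interval -0.17 to 0.16) and 1.30 ± 0.07 in WT cells, a 2.47-fold rise (adjusted p = 2.1e-14). Among the 12261 genes tested, this WT change was 1035th by size. The responses differed by -1.31 ± 0.11 (adjusted p = 2e-10). With PBS the genotypes were not told apart (0.07 ± 0.08, adjusted p = 0.65), and with ADP-Hep Traf2 was lower in KO cells (-1.24 ± 0.07, adjusted p = 4.5e-14).

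Traf6, the ligase that TIFA recruits, moved little. Its levels were 33.1 to 34.8 CPM in KO ADP-Hep libraries against 34.7 to 37.6 in KO PBS, and 35.3 to 39.1 CPM in WT ADP-Hep libraries against 33.1 to 33.9 in WT PBS. The KO change was -0.08 ± 0.06 (adjusted p = 0.32) and the WT change 0.17 ± 0.06 (adjusted p = 0.014). The KO groups overlapped at their edges, and the WT groups lay apart by a small gap. The difference between responses was -0.25 ± 0.08 (adjusted p = 0.015), and KO cells had less Traf6 than WT cells after ADP-Hep (-0.16 ± 0.06, adjusted p = 0.018). Of the 10 genes, Traf6 lost its calls most often over the settings tried. Without the WT ADP-Hep replicate 1 library, the WT change was 0.14 (adjusted p = 0.0752). With library totals as the only scaling, it was 0.06 (adjusted p = 0.397, against 0.0055 at the other end of 23 settings). The difference between responses was then -0.10 (adjusted p = 0.34, against 0.0065 at the other end of 22 settings).

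Ube2n, the conjugating enzyme that works with TRAF6, rose more than its ligase. In KO cells it had 30.5, 31.9 and 32.8 CPM after ADP-Hep, against 29.7, 29.4 and 28.3 CPM with PBS. In WT cells it had 43.9, 44.2 and 47.3 CPM after ADP-Hep, against 30.4, 29.7 and 29.8 CPM with PBS. The WT groups lay far apart. The KO groups also did not overlap, but their change of 0.12 ± 0.06 missed the threshold (adjusted p = 0.15, interval -0.01 to 0.25). With library totals as the only scaling, the KO change was 0.16 and passed it (adjusted p = 0.042; 0.042 to 0.438 over 23 other settings). The WT change was 0.58 ± 0.06, or 1.5-fold (adjusted p = 2.2e-09), and the responses differed by -0.46 ± 0.08 (adjusted p = 5.9e-05). After ADP-Hep, Ube2n was lower in KO cells than in WT cells (-0.50 ± 0.06, adjusted p = 2.4e-08).

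Map3k7 encodes TAK1, the kinase on which the chain converges. It had 93.5 to 101 CPM in KO ADP-Hep libraries against 88.2 to 92 in KO PBS, and 105 to 109 CPM in WT ADP-Hep libraries against 90.5 to 95.4 in WT PBS. In both genotypes the ADP-Hep libraries lay above the PBS libraries. The KO change was 0.09 ± 0.05 (adjusted p = 0.16, interval -0.01 to 0.19) and the WT change 0.20 ± 0.05 (adjusted p = 0.00084). Scaled by library totals alone, the WT change was 0.08 and missed the threshold (adjusted p = 0.124; 0.000335 to 0.124 over 23 other settings). The difference between responses did not pass the test (-0.10 ± 0.07, adjusted p = 0.22, interval -0.24 to 0.04), so a called WT change beside an uncalled KO change does not show that the genotypes responded differently. After ADP-Hep, Map3k7 was lower in KO cells (-0.15 ± 0.05, adjusted p = 0.0067). That direction depends on the scaling: with library totals alone the value was 0.0032 (adjusted p = 0.956; 0.00369 to 0.956 over 23 other settings).

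The TAB partners did not move together. Tab1, which binds TAK1 and promotes its activity, fell in WT cells. In KO cells it had 19.8, 20.6 and 18.8 CPM after ADP-Hep, against 18.6, 25.2 and 18.7 CPM with PBS. In WT cells it had 12.6, 13.6 and 14.1 CPM after ADP-Hep, against 19.5, 19.4 and 18.4 CPM with PBS. The KO groups overlapped, with replicate 2 of KO PBS standing high, and the WT groups did not overlap. The change was -0.10 ± 0.09 in KO cells (adjusted p = 0.46, interval -0.29 to 0.09) and -0.52 ± 0.10 in WT cells, to 0.698 of the PBS level (adjusted p = 5.5e-05). The responses differed by 0.42 ± 0.14 (adjusted p = 0.013), and after ADP-Hep KO cells had 1.48-fold more Tab1 (0.56 ± 0.10, adjusted p = 1.6e-05). Without replicate 2 of KO PBS, the KO change of Tab1 was 0.08 (adjusted p = 0.562) and the difference between responses 0.59 (adjusted p = 0.000163; 0.000163 to 0.0465 over 22 settings). With PBS, Tab1 in KO against WT cells was 0.14 ± 0.10 (adjusted p = 0.37) and -0.03 without that library (adjusted p = 0.879).

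Tab2, a ubiquitin-chain-binding partner of TAK1, had 245 to 260 CPM in KO ADP-Hep libraries, against 251 to 278 in KO PBS, and 284 to 295 CPM in WT ADP-Hep libraries against 243 to 252 in WT PBS. Its change was -0.06 ± 0.05 in KO cells (adjusted p = 0.31) and 0.23 ± 0.05 in WT cells (adjusted p = 0.00011), a difference of -0.29 ± 0.06 (adjusted p = 0.00054). With library totals alone that difference was -0.13 and missed the threshold (adjusted p = 0.0625, against 3.93e-05 at the other end of 22 settings). Tab2 thus rose by 1.17-fold in WT cells, a small change between groups that did not overlap. After ADP-Hep it was lower in KO cells than in WT cells (-0.21 ± 0.05, adjusted p = 0.0003), at -0.05 with library totals alone (adjusted p = 0.291, against 1.31e-05 at the other end of 23 settings). Tab3, its close relative, had 26.6 to 27.6 CPM in KO ADP-Hep libraries against 23.9 to 28.1 in KO PBS, and 27 to 31 CPM in WT ADP-Hep libraries against 26.2 to 28.9 in WT PBS. No comparison called Tab3. Its change was 0.06 ± 0.07 in KO cells (adjusted p = 0.57, interval -0.09 to 0.21) and 0.07 ± 0.07 in WT cells (adjusted p = 0.36, interval -0.07 to 0.22).

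Small changes such as those of Traf6, Map3k7 and Tab2 depend on where no change is set. With library totals as the only scaling, the median log2 change of all genes moved to 0.05 in KO cells and -0.12 in WT cells. It moved to 0.16 for the difference between responses and to 0.17 for KO against WT after ADP-Hep. Calls for the changes of Alpk1, Tifa, Tifab, Traf2, Ube2n, Tab1 and Tab2 in WT cells were the same with library totals and with DESeq2 size factors. For Tab2 the WT change shrank to 0.11 with library totals (adjusted p = 0.0213).

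**Figure D2:**
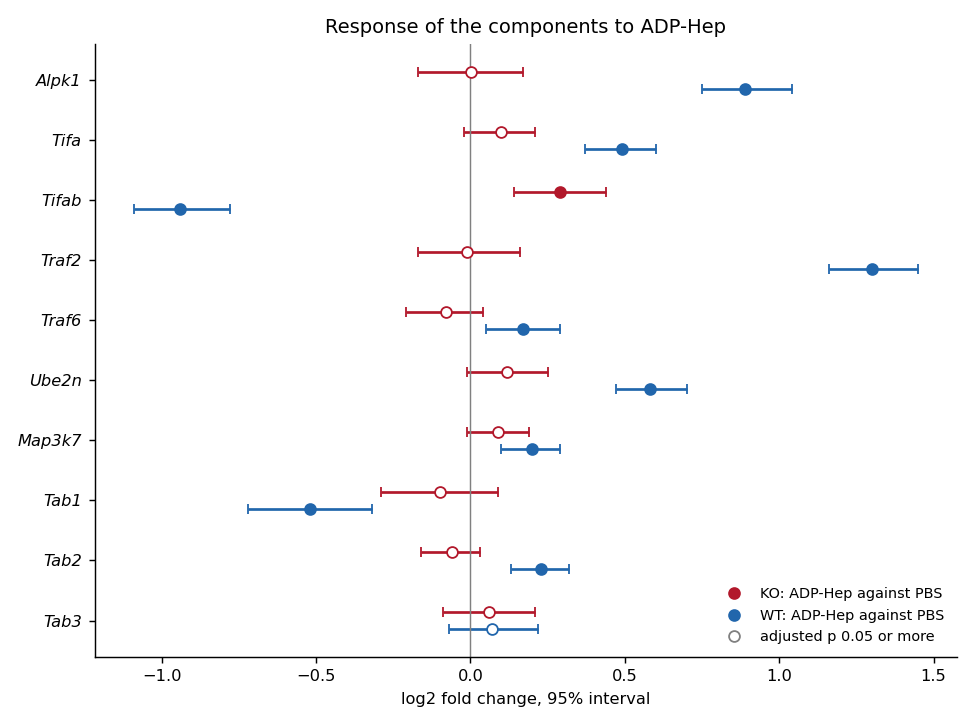
Log2 fold change after ADP-Hep (horizontal axis) for each of the 10 genes, KO above WT, with 95% intervals; filled points were called at an adjusted p under 0.05. Among the KO points Tifab is the filled one, at 0.29, while the WT points run from -0.94 for Tifab to 1.30 for Traf2 with Tab3 unfilled.

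Levels of different genes were compared as TPM, counts per length of merged exons scaled to the same sum in each library, which is not the scale of the values above. In KO cells after ADP-Hep the order of the means was Tab2 (117), Tifa (102), Tifab (78), Map3k7 (42.7), Ube2n (21.5), Tab1 (16.7), Traf6 (12.2), Tab3 (11.7), Traf2 (10.8) and Alpk1 (8.76). The libraries of Traf6 and Tab3 overlapped, and all other neighbours in this order lay apart. In KO cells with PBS the order was the same: Tab2 (124), Tifa (97.7), Tifab (65), Map3k7 (40.7), Ube2n (20.1), Tab1 (18.2), Traf6 (13.2), Tab3 (11.4), Traf2 (11.1) and Alpk1 (8.99). There Ube2n overlapped with Tab1, Tab3 with Traf2, and Traf2 with Alpk1. The sensor thus had the lowest mean TPM of the 10 in both KO groups, computed over the full exon length, of which the deleted part is not known.

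In WT cells the order differed between treatments. After ADP-Hep it was Tab2 (124), Tifa (112), Map3k7 (43.8), Tifab (28.8), Ube2n (28.1), Traf2 (23.7), Alpk1 (20.6), Traf6 (12.6), Tab3 (11.6) and Tab1 (10.5). With PBS it was Tab2 (111), Tifa (82.9), Tifab (57.5), Map3k7 (39.7), Ube2n (19.5), Tab1 (15.6), Alpk1 (11.7), Traf6 (11.7), Tab3 (11.5) and Traf2 (9.92). Tifab stood below Map3k7 after ADP-Hep and above it with PBS, and Tab1 stood last after ADP-Hep. Neighbours whose WT ADP-Hep libraries overlapped were Tab2 with Tifa, Tifab with Ube2n, Traf2 with Alpk1, Traf6 with Tab3 and Tab3 with Tab1. With PBS, the last 4 overlapped from one to the next.

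**Figure D3:**
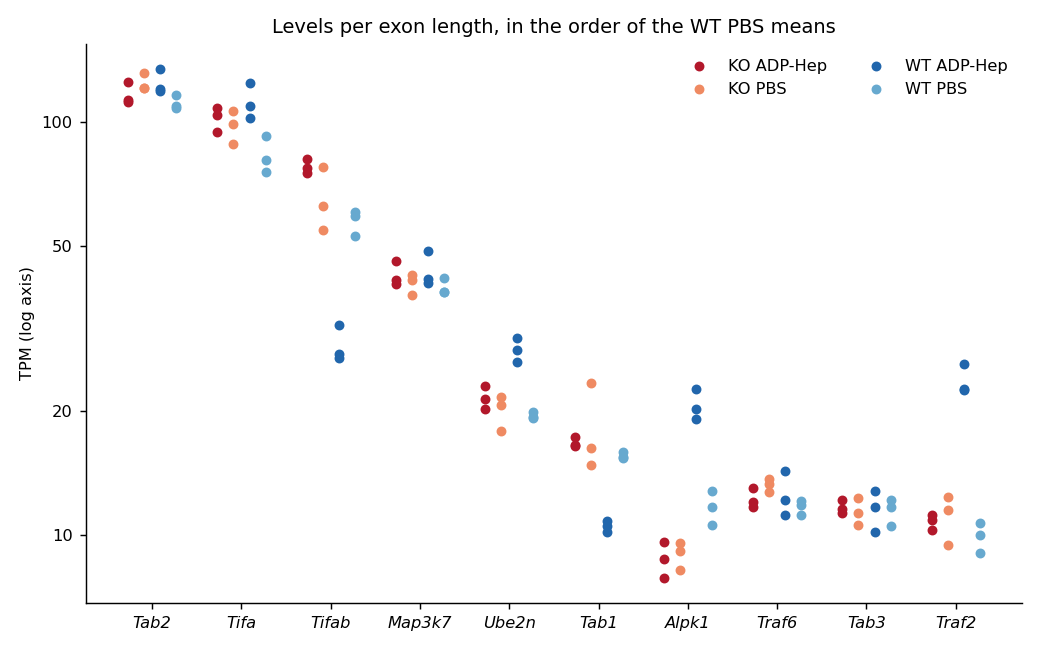
TPM (log axis) of the 10 genes in each library, ordered by the WT PBS mean, with the 4 groups side by side in each gene. The WT ADP-Hep points of Tifab and Tab1 lie below the other 3 groups and those of Traf2, Alpk1 and Ube2n above them.

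Ratios within a library, which do not depend on library scaling, describe the make-up of the chain. The ratio of Tifa to Tifab TPM was 1.31 ± 0.14 in KO cells after ADP-Hep against 1.52 ± 0.13 with PBS, and 3.88 ± 0.18 in WT cells after ADP-Hep against 1.45 ± 0.25 with PBS (SD, n = 3 each). The adaptor therefore exceeded its relative by far more in WT ADP-Hep libraries, 3.72 to 4.07, than in any of the other 9, 1.16 to 1.74. The ratio of Traf6 to Traf2 was 1.13 ± 0.12 against 1.20 ± 0.13 in KO cells, ADP-Hep against PBS, and 0.53 ± 0.03 against 1.18 ± 0.10 in WT cells. Traf2 was thus the more abundant of these ligase genes in WT ADP-Hep libraries only. The ratio of Tab2 to Tab1 was 6.99 ± 0.54 against 7.05 ± 1.29 in KO cells, ADP-Hep against PBS, and 11.86 ± 0.47 against 7.10 ± 0.36 in WT cells. The ratio of Map3k7 to Tab1 was 2.55 ± 0.22 after ADP-Hep against 2.31 ± 0.42 with PBS in KO cells, and 4.17 ± 0.32 after ADP-Hep against 2.55 ± 0.15 with PBS in WT cells. In contrast, Tab2 to Tab3 ranged between 9.66 and 10.89 over the 4 group means.

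Other genes of the pathway were read from lists chosen by role, each beside the shares of all tested genes called: 28.9% in KO cells, 63.5% in WT cells and 49.5% for the difference between responses. Of 11 IKK and NF-kB genes, ADP-Hep left 3 higher and 2 lower in KO cells (median 0.01), and 11 higher with 0 lower in WT cells (median 1.51). The difference between responses was negative and called for all 11. Nfkbie, an inhibitor that holds NF-kB in the cytoplasm, had 4.1 ± 0.618 CPM against 3.94 ± 0.189 in KO cells, ADP-Hep against PBS, and 121 ± 3.17 against 6.79 ± 1.14 in WT cells. Its relative Nfkbia had a log2 change of 0.03 ± 0.07 in KO cells (adjusted p = 0.73) and 3.00 ± 0.06 in WT cells (adjusted p = 1.3e-23). Nfkb2, the precursor subunit of the non-canonical branch, was called in both, at 0.26 ± 0.07 in KO cells (adjusted p = 0.0036) and 2.96 ± 0.06 in WT cells (adjusted p = 2.6e-23). The WT changes of these 3 genes exceeded the 1.30 of Traf2, the widest of the 10 components.

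Among 12 tested genes that build ubiquitin chains, ADP-Hep gave 3 higher and 1 lower in KO cells, and 7 higher and 1 lower in WT cells, which is near the 28.9% and 63.5% of all tested genes; Ube2v1, the usual partner of UBE2N, was not tested. Birc3, a ligase that binds TRAF2, had a log2 change of -0.17 ± 0.06 in KO cells (adjusted p = 0.031) and 2.30 ± 0.05 in WT cells (adjusted p = 2.4e-22). Its paralog Birc2 rose in both, by 0.32 ± 0.08 in KO cells (adjusted p = 0.0025) and 0.78 ± 0.07 in WT cells (adjusted p = 6.8e-10). Rnf31, the catalytic subunit of the linear-chain ligase, had a log2 change of -0.07 ± 0.06 in KO cells (adjusted p = 0.4) and 0.74 ± 0.06 in WT cells (adjusted p = 2.9e-11). The difference between responses was called positive for 2 and negative for 6 of the 12. The editors and brakes gave 0 higher and 4 lower of 14 in KO cells, and 8 higher and 1 lower in WT cells. Tnfaip3 (A20), which removes ubiquitin chains from TRAF6, had a log2 change of -0.16 ± 0.06 in KO cells (adjusted p = 0.067) and 2.31 ± 0.06 in WT cells (adjusted p = 1.2e-21). The ubiquitin-binding brake Tnip1 moved opposite ways, by -0.62 ± 0.06 in KO cells (adjusted p = 8.7e-08) and 1.61 ± 0.06 in WT cells (adjusted p = 5.9e-17). The other named brakes, Tnip3 and the TRAF-binding Tank, were called in WT cells (3.24 ± 0.05 and 2.18 ± 0.07) and not in KO cells (0.09 ± 0.07 and -0.13 ± 0.08). For this list the difference between responses was called positive for 0 and negative for 10 of the 14, with Tnfaip3, Tnip1, Tnip3 and Tank among them.

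For the 6 other TRAF genes, ADP-Hep gave 0 higher and 1 lower in KO cells, where 28.9% of all genes were called, and 2 higher and 1 lower in WT cells, where 63.5% were. Traf1, which pairs with TRAF2, had 1.88 ± 0.485 CPM against 2.25 ± 0.414 in KO cells, ADP-Hep against PBS, and 102 ± 3.94 against 2.34 ± 0.174 in WT cells, where the change was 5.45 ± 0.10 (adjusted p = 4.1e-24). Traf3, which restrains the non-canonical branch, had a log2 change of -0.17 ± 0.06 in KO cells (adjusted p = 0.036) and 1.04 ± 0.05 in WT cells (adjusted p = 1.5e-15). Traf5 had a log2 change of 0.05 ± 0.12 in KO cells (adjusted p = 0.78) and -0.57 ± 0.13 in WT cells (adjusted p = 0.00043). Of the 6, the interaction was called positive for 1 and negative for 2. Of the 5 other alpha-kinase genes, Alpk2 and Trpm6 had too few reads to be tested; of the remaining 3, 1 was higher and 1 lower in KO cells, and all 3 were lower in WT cells. Eef2k, which phosphorylates an elongation factor, had a log2 change of 0.19 ± 0.07 in KO cells (adjusted p = 0.033) and -1.55 ± 0.08 in WT cells (adjusted p = 4.3e-15). Alpk3 was below 1 CPM in every group mean, and Trpm7, a channel with a kinase domain, had a log2 change of -0.24 ± 0.06 in KO cells (adjusted p = 0.0037) and -0.14 ± 0.06 in WT cells (adjusted p = 0.047). Eef2k was the 1 of the 3 whose responses differed by the test, at 1.73 ± 0.10 (adjusted p = 3.2e-13).

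Below TAK1, 15 MAP kinase relay genes were tested. ADP-Hep left 2 higher and 2 lower in KO cells, where 28.9% of all tested genes were called. In WT cells 8 were higher and 4 lower, where 63.5% of all tested genes were called. Mapk13 was not tested. Mapkapk2, a kinase downstream of p38, had 189 ± 3.82 CPM against 203 ± 5.71 in KO cells, ADP-Hep against PBS, and 670 ± 24.9 against 228 ± 5.83 in WT cells. Map2k1, a kinase of the ERK branch, had a log2 change of 0.00 ± 0.05 in KO cells (adjusted p = 0.98) and 0.61 ± 0.05 in WT cells (adjusted p = 5.1e-11). Map2k6, which activates p38, had a log2 change of 0.15 ± 0.11 in KO cells (adjusted p = 0.33) and -2.36 ± 0.13 in WT cells (adjusted p = 3.2e-14), a fall larger than that of Tifab. Of the 15, the interaction was called positive for 1 and negative for 3, where 49.5% of all tested genes were called. Of the 14 other routes into TRAF6, 3 were higher and 5 lower in KO cells, where 28.9% of all tested genes were called. In WT cells 10 were higher and 3 lower, where 63.5% of all tested genes were called. Cd40, a receptor that signals through TRAFs, had a log2 change of 0.62 ± 0.21 in KO cells (adjusted p = 0.032) and 4.61 ± 0.11 in WT cells (adjusted p = 9.1e-22). The KO change was at a low level, 2.46 ± 0.428 CPM after ADP-Hep against 1.53 ± 0.445 with PBS. The WT levels were 61 ± 3.44 and 2.56 ± 0.341 CPM. Myd88, the Toll-like receptor adaptor, rose in both, by 0.51 ± 0.06 in KO cells (adjusted p = 1e-07) and 1.24 ± 0.05 in WT cells (adjusted p = 1.2e-16). The TRAF6-binding scaffold Sqstm1 had a log2 change of -0.76 ± 0.06 in KO cells (adjusted p = 1.7e-08) and 1.53 ± 0.06 in WT cells (adjusted p = 1.8e-14). The IRAK genes Irak2 and Irak3 had log2 changes of -0.28 ± 0.06 and 0.05 ± 0.05 in KO cells (adjusted p = 0.0013 and 0.47) and rose in WT cells, by 1.44 ± 0.06 and 1.92 ± 0.05. Of these 14, the interaction was called positive for 3 and negative for 9.

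**Figure D4:**
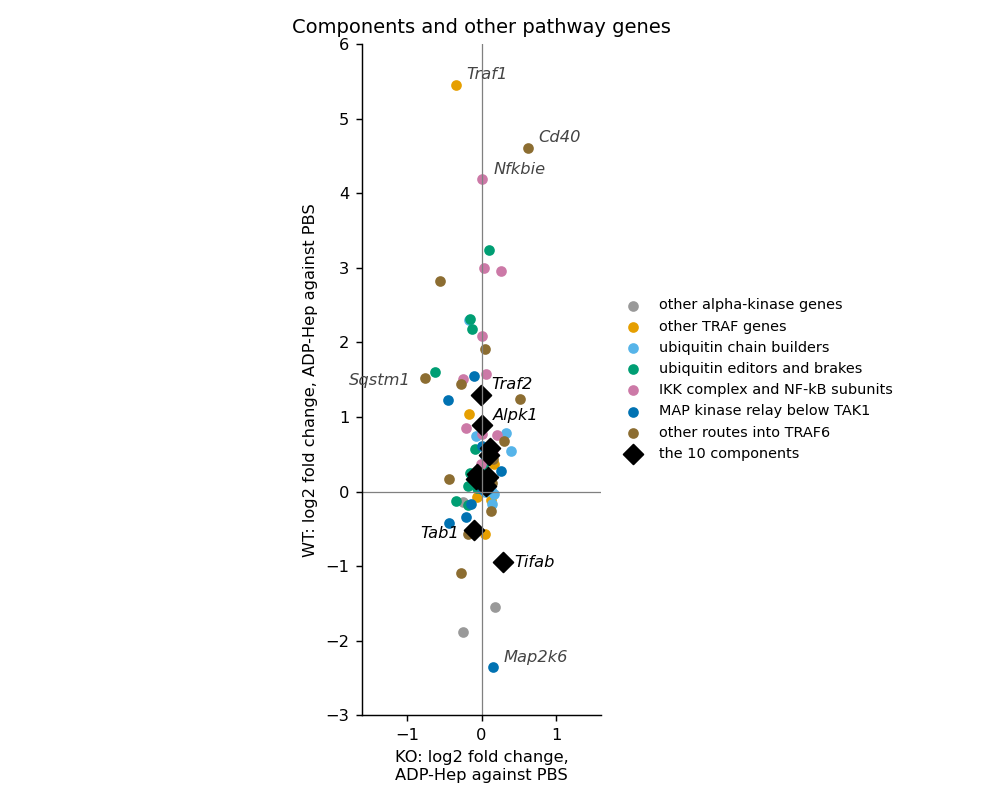
Log2 fold change after ADP-Hep in KO cells (horizontal) against that in WT cells (vertical) for the 10 components (black diamonds) and the tested genes of 7 pathway lists, on equal scales. The points spread mainly along the vertical axis, from -2.36 for Map2k6 to 5.45 for Traf1, and the components take the middle of it.

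Since Alpk1 and Tifa are neighbours, the other genes within 500 kb of Alpk1 were read. The annotation places 35 there, of which 14 were in the rows used and 6 were tested. Of all tested genes, 11.4% were called between the genotypes with PBS and 64.8% with ADP-Hep. With PBS, 0 were higher and 1 was lower in KO cells: Ank2, a membrane-skeleton adaptor at a low level, had 1.05 ± 0.0848 CPM in KO cells and 2.09 ± 0.515 in WT cells (-0.94 ± 0.27, adjusted p = 0.023). With ADP-Hep, 2 were higher in KO cells, Ank2 (0.83 ± 0.28, adjusted p = 0.012) and Zgrf1 (0.62 ± 0.11, adjusted p = 3.2e-05). The 3 that were lower were Tifa, given above, Ap1ar (-0.33 ± 0.06, adjusted p = 4.7e-05) and Fam241a (-1.13 ± 0.08, adjusted p = 3.2e-11). Fam241a, 88.5 kb beyond Alpk1 on the side of Tifa, had the widest genotype difference of the 6 with ADP-Hep. It had 25.7 ± 0.732 CPM against 25 ± 0.824 in KO cells, ADP-Hep against PBS, and 55.8 ± 6.87 against 29.8 ± 3.51 in WT cells, where it rose by 0.91 ± 0.08 (adjusted p = 1.2e-09). Larp7, on the other side, rose in KO cells (0.18 ± 0.06, adjusted p = 0.027) and was not called in WT cells (0.11 ± 0.06, adjusted p = 0.1).

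**Figure D5:**
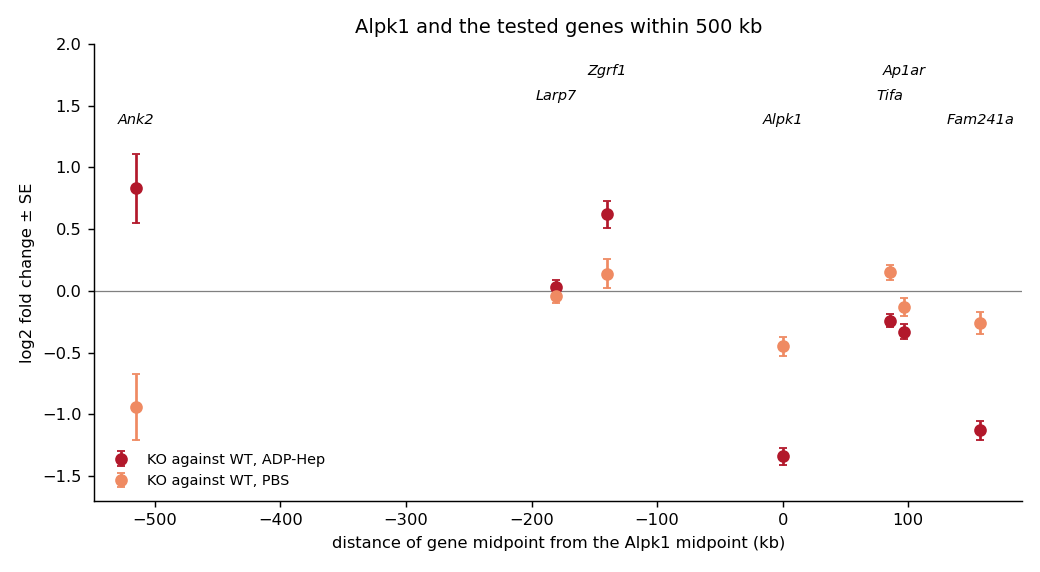
Log2 fold change ± SE of KO against WT cells, with ADP-Hep (red) and with PBS (orange), for Alpk1 and the 6 tested genes within 500 kb, by distance of gene midpoints in kb. Alpk1 and Fam241a lie lowest with ADP-Hep, at -1.34 and -1.13, while Ank2 changes sign between treatments.

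Across the 12 libraries, the genes whose log2 CPM ran most closely with a member were ranked by Pearson correlation among 9473 genes with a mean of at least 5 CPM. The 12 libraries form 4 groups, so these values mostly restate the group pattern and are given as a description. For Alpk1 they were Camkk2 (r = 0.988), Cpd (0.987), Eprs (0.985), Psmb6 (0.984) and Traf3 (0.983). For Tifa they were Pmaip1 (r = 0.970), Atad1 (0.961), Rwdd1 (0.961), Btg2 (0.955) and Ctps (0.953). For Tifab they were Pygb (r = 0.994), Scamp5 (0.992), Smarca2 (0.991), Zmat3 (0.991) and Rubcn (0.988). Traf3 is the one of these 15 genes that also belongs to a pathway list.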

How the data were processed

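RNA-seq of 12 libraries was analysed. The authors deposited raw read counts of genes as whole numbers, in 1 table. Libraries were made with a stranded mRNA kit, per the labels' protocols. Per the submitters' processing notes, mm10 and hg38 were the builds and STAR, featureCounts, RSEM, DESeq2, Trim Galore and FastQC the tools. Their roles, versions and strand setting were not given in the sources used here. Column names gave the groups. For 1 column of KO cells with ADP-Hep the number was on no label, so it stayed in its group as an unnumbered replicate.

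Across genes, KO and WT mean log2 counts correlated at r = 0.9965 in the 37542 rows used. Below the slip r was 0.042, and 0.9787 with the KO columns moved up 1 row, so 19207 rows were left out. Replicates differed beyond sampling noise (chi-square per degree of freedom 1.96 to 10.5).

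Tests used R 4.3.3 and edgeR 4.0.16: TMM scaling, filterByExpr, and a robust quasi-likelihood model of 4 group means with Benjamini-Hochberg adjustment over 12261 genes. The biological coefficient of variation was 4.81%. The code was tested on simulated data. TPM used GENCODE release 21 merged exons. Correlations used log2(CPM + 0.5). The members, gene lists and tests were chosen with earlier results of these data known. Named genes outside the 10 were, per list, up to 3 called genes with the smallest p in WT cells and any called in KO cells beyond 0.5 log2, all tested genes within 500 kb of Alpk1, and the 5 closest by correlation. Alternatives were DESeq2 1.42.0, limma-voom (limma 3.58.1), other scalings and filters, no robust estimation, fits of the groups compared, a replicate block, other uses of the slipped rows, and each library left out.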

Additional observations from a re-analysis of the deposited data

Results flagged for a closer look

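For 8 of the 10 components the response to ADP-Hep differed between the genotypes by the interaction test, given here as the KO response minus the WT response on the log2 scale. The differences were negative for Alpk1 (-0.89), Tifa (-0.39), Traf2 (-1.31), Traf6 (-0.25), Ube2n (-0.46) and Tab2 (-0.29), and positive for Tifab (1.23) and Tab1 (0.42). Tifab is the member for which both responses were called and had opposite signs, 0.29 in KO cells and -0.94 in WT cells. Of all tested genes, 49.5% had a called difference. With library totals as the only scaling 6 of the 10 were called, without Traf6 and Tab2.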

How the results depend on the processing

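Of 540 values of the 10 genes under other settings, 529 kept their side of the threshold, 8 lost the call, 2 gained it and 1 called value reversed. The sign also changed for 14 values called in neither setting, so 515 kept both. Of 600 with 1 library left out, 595 kept their side of the threshold, 4 lost the call and 1 gained it, and the sign changed for 13 values called in neither setting. Library totals as the only scaling moved most: for KO against WT after ADP-Hep, Map3k7 reversed to 0.0032 (-0.15 with TMM), and the test called 5 of the 10 genes in place of 9. It called 7 in the WT response in place of 9 and 6 for the difference between responses in place of 8. The same scaling called 3 in the KO response in place of 1, with Tifab, Ube2n and Map3k7 higher. The split of all called genes became 2360 higher and 1483 lower for the KO response (1678 and 1870 with TMM), 2990 and 4927 for the WT response (3914 and 3871), 4507 and 2020 for the difference (3053 and 3018), and 5609 and 2722 for KO against WT after ADP-Hep (4016 and 3929). Traf6 also lost its difference between responses without a filter (adjusted p = 0.0508), and its genotype call after ADP-Hep without WT ADP-Hep replicate 1 or 2 or KO ADP-Hep replicate 1 (adjusted p = 0.0881, 0.0557 and 0.0773; over the settings for that result the scaling above gave 0.925). Over all rows as deposited, KO against WT with PBS called 3150 genes in place of 1397. With 1 library left out it called 829 to 1565, the lowest without KO PBS replicate 1, and 1 to 2 of the 10 genes. A replicate block was tried on the 11 numbered libraries. It called 1 of the 10 genes in the KO response, 9 in the WT response and 8 for the difference, as without it. Of all genes it called 2583 in the KO response, against 2757 in the same 11 libraries without a block. Same-numbered libraries did not deviate together (r = -0.37 to 0.219 over 15 pairs, 4 of them over 0.1), so the numbers were not taken as pairs. Alpk2, Trpm6, Ube2v1 and Mapk13 had at most 12 counts in any library and did not pass the filter on low counts; why they were low was not tested.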
